A study of Mus musculus with 12 samples.

Results

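The genes described here are the ligands, receptors, Smads, inhibitors and early targets of transforming growth factor beta (TGF-beta) and bone morphogenetic protein (BMP) signalling. They are 45 listed gene symbols, each matched to 1 of the 54392 gene rows of the expression table through the GENCODE M21 annotation. Of the 45, 34 were tested, together with 15073 genes in all, because they had a normalised count of at least 10 in at least 3 libraries. The cells are NIH-3T3, an immortalised line of mouse fibroblasts, and the series was made to study cardiolipin, a lipid of the inner mitochondrial membrane, in the translation of mitochondrial genes.

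Total RNA depleted of cytoplasmic ribosomal RNA was sequenced in 3 libraries each of KO1, KO2, KO3 and WT. KO1, KO2 and KO3 (genotypes Crls1KO1, Crls1KO2 and Crls1KO3) are lines in which Crls1, the gene for cardiolipin synthase, was cut by Cas9, introduced on a plasmid together with a guide RNA. Each line was grown from 1 sorted cell positive for green fluorescent protein, and genomic sequencing was used to check that its Crls1 alleles were lost. WT (genotype Crls1WT) is the same line with intact Crls1, and the labels do not say whether it was transfected, sorted or grown from 1 cell. All groups grew in the same high-glucose medium with serum, pyruvate and uridine, and no ligand of the pathway is named as an addition. Each clone therefore stands for 1 founder cell, and an effect of Crls1 loss and a difference between founder cells cannot be told apart within a clone. Nothing in the labels says that the 3 libraries of a group came from separate cultures, so the p-values measure only the spread between these libraries, which may be technical.

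TGF-beta family ligands are dimers that bring together type II and type I receptor kinases at the cell surface. The type I receptors phosphorylate receptor Smads: TGF-beta and activin receptors act mainly on Smad2 and Smad3, and BMP receptors on Smad1, Smad5 and Smad9, which enter the nucleus with Smad4. In fibroblasts TGF-beta is stored in the matrix in latent form, bound to latent TGF-beta binding proteins, and its signalling is known for driving matrix production, while Smad7, Smad6 and Skil restrain the pathway in feedback.

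Between 32929242 and 42211807 reads per library fell on the genes of the table. Crls1 averaged 210 ± 2.67 in KO1, 349 ± 21.1 in KO2 and 381 ± 23.9 in KO3, against 815 ± 68.4 in WT (normalised count ± SD, n = 3 libraries each, as everywhere below), so the ranges of the clones lay below that of WT. Fibroblast markers summed to between 801495 and 943383 normalised counts in all 12 libraries, with 1 of the 10 genes, Fap, at 0 throughout. Single genes of this list went different ways: Col1a2 and Pdgfrb were called lower and Col3a1 higher in all 3 clones. Col3a1 had means of 7939 in KO1, 884 in KO2 and 3664 in KO3, against 148 in WT. Each remaining tested gene of the list was called in only some clones, among them Pdgfra, higher in KO1 and KO2, and Col1a1, lower in KO3. Epithelial markers summed to 344 to 371 in KO1, 186 to 208 in KO2 and 305 to 330 in KO3, against 96.4 to 107 in WT, with 4 of 6 genes under 10 in every library and Cldn4 at 0. The other 2 went opposite ways in all 3 clones: Cdh1 was higher, with means of 349.7 in KO1, 185 in KO2 and 307 in KO3, against 17.8 in WT, and Krt8 had means of 5.26 in KO1, 9.59 in KO2 and 4.41 in KO3, against 84.8 in WT. Krt8 passed the filter only through its WT values, so its direction is given as a description. Muscle markers summed to 155 to 209 in KO1, 203 to 253 in KO2 and 159 to 164 in KO3, against 82.3 to 112 in WT, with 3 of 5 genes under 10 and Myod1 at 0. Most of this sum was Des, called higher in all 3 clones (172 in KO1, 228 in KO2 and 154 in KO3, against 82.4 in WT), while Acta1 (4.14 in KO1, 5.53 in KO2 and 7.05 in KO3, against 12.4 in WT) was called lower in KO1 and KO2. Blood markers summed to 97.4 to 115 in KO1, 57.8 to 62.3 in KO2 and 34.2 to 70.3 in KO3, against 48.2 to 85.8 in WT, and their sum in KO1 held 32.3 of Ptprc, against 0.345 in WT. The part of these markers in the results was not tested, and in bulk RNA fewer cells of a type and less RNA per cell cannot be told apart. Within WT, replicate 1 lay apart: its chi-square per degree of freedom over genes was 52.9 and 55.5 against the other WT libraries, while theirs against each other was 17.2.

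Differences are given as log2(normalised count + 1), clone minus WT, from limma fitted to all 15073 genes, and a gene was called at a Benjamini-Hochberg adjusted p under 0.05. In KO1, 9 tested members were higher than in WT and 14 lower, where 26.9% of all tested genes were higher and 25.4% lower. In KO2, 9 were higher and 13 lower, against a background of 29.9% higher and 30.5% lower. In KO3, 8 were higher and 21 lower, against 26.8% and 27.3%. The median difference of the 34 tested members was -0.04 in KO1, -0.09 in KO2 and -0.29 in KO3, beside 0.02, 0.00 and 0.00 over all genes tested. The 3 comparisons share the WT libraries.

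Of the tested members, 14 were called in the same direction in all 3 clones. Lower in every clone were Inhba, Fst, Tgfb2, Ltbp1, Ltbp2, Acvrl1, Eng, Smad9 and Smad7, which is 9 genes, where 13.3% of all tested genes were lower in all 3 clones. The 9 include Fst, which passed the filter on low counts only through WT and is no support for a direction. Higher in every clone were Ltbp4, Chrd, Acvr1, Acvr1b and Acvr2a, which is 5 genes, where 12.9% of all tested genes were. Chrd would not have passed the filter on its WT values alone, so its direction is given as a description. Gdf11, Tgfbr2 and Id2 were called in opposite directions in different clones, a pattern shown by 8.38% of all tested genes. Bmpr2 and Bmpr1a were called in no clone.

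**Figure D1:**
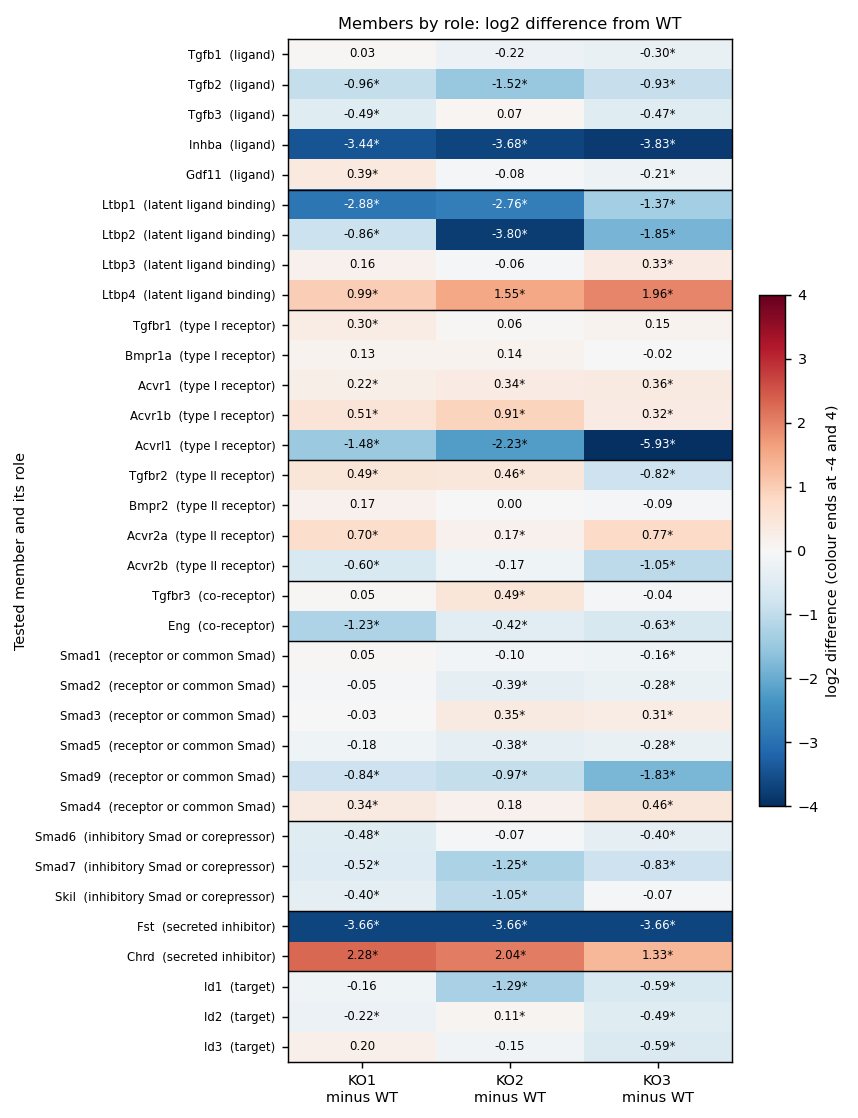
Heat map of the 34 tested members (rows, grouped by role) with the log2 difference from WT in each clone (columns KO1, KO2 and KO3), where each cell prints its value, a star marks an adjusted p under 0.05, and colour runs from lower (blue) to higher (red) with ends at -4 and 4. Inhba was at -3.44, -3.68 and -3.83, Ltbp4 at 0.99, 1.55 and 1.96, and Tgfbr2 changed sign between KO1 or KO2 and KO3.

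The stretches of 250 bases before the annotated start are shown for 5 members that were called alike in all clones: Inhba and Smad9, among the genes lowest against WT in their roles, Ltbp1, the binding protein at the highest level in WT, and the higher genes Chrd and Ltbp4. They are RefSeq sequences of GRCm38.p6, written 5′ to 3′ on the strand of the gene, and capitals mark CAGAC, a Smad box known from TGF-beta targets (read as GTCTG on the other strand), or GGCGCC, a GC-rich site known from BMP targets. Inhba is at chr13:16011601-16011850 (plus strand), the first of 2 listed starts of Ltbp1 at chr17:75005279-75005528 (plus), Smad9 at chr3:54755332-54755581 (plus), Chrd at chr16:20732877-20733126 (plus), and the third listed start of Ltbp4 at chr7:27333664-27333913 (minus).
Inhba: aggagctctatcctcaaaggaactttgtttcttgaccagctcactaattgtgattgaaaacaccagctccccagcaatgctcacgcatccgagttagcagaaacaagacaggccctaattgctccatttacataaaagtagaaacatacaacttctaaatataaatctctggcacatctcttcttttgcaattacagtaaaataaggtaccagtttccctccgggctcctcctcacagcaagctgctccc
Ltbp1: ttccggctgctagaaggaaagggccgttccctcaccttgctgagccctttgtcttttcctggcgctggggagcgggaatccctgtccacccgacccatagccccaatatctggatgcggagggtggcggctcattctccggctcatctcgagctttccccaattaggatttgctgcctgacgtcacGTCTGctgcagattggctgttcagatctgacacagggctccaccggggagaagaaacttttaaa
Smad9: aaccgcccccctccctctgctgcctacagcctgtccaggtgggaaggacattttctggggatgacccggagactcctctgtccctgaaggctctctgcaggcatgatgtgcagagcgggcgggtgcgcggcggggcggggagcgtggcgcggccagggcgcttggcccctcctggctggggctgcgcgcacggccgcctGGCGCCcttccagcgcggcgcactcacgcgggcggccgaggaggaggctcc
Chrd: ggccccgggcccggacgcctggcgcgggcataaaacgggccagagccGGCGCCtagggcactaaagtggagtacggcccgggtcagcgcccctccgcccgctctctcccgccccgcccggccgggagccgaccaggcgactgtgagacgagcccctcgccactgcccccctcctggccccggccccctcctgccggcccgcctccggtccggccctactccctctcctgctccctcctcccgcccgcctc
Ltbp4: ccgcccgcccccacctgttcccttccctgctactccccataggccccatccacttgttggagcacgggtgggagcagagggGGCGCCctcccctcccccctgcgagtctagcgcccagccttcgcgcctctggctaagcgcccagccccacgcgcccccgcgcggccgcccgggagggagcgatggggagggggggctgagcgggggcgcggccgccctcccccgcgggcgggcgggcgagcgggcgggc
Of the 45 members, 32 had a promoter in the RefSeq table. Windows of 300 bases (250 before and 50 from the start) were read on both strands. A member with several starts was counted if any of its windows held the motif. The percentages are per promoter, so the member counts are not in the same unit. CAGAC lay in 17 of these 32 members and in 49.6% of all 32851 promoters. GGCGCC lay in 10 of the 32 members and in 11.9% of all promoters. The printed Inhba stretch held neither motif, and a match or its absence describes only the letters of the window. The Smad palindrome GTCTAGAC was in 1 of the 32 members, Smad6, and in 0.213% of all promoters. It spans the start of Smad6, with 4 bases before it and 4 from it, at chr9:64022045-64022074 (minus strand, capitals mark the palindrome).
Smad6: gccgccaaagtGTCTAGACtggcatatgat
TGACTCA, a binding site of AP-1, was in 1 of the 32 members, Ltbp3, and in 5.2% of all promoters. A window can hold several of these motifs, and none of the 4 contains another.

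Among the ligands, the genes for activin and TGF-beta 2 were lower in every clone, and 3 other ligands differed by clone. Inhba encodes the beta A subunit of activin A. It had normalised counts of 879.8, 919 and 833 in KO1, 645, 773 and 818 in KO2 and 698, 727 and 584 in KO3, against 10209, 9054 and 9337 in WT. The highest clone library lay far below the lowest WT library, with no overlap. On the log2 scale Inhba was lower by 10.8-fold in KO1 (-3.44, SE 0.10, adjusted p = 7.26e-11), 12.8-fold in KO2 (-3.68, adjusted p = 4.03e-11) and 14.3-fold in KO3 (-3.83, adjusted p = 2.31e-11). KO3 was also below KO1 (-0.40, adjusted p = 0.00677). Per kilobase of annotated exon, Inhba was the ligand at the highest level in WT (1492 per kb), and the third in each clone, with 137, 117 and 105 per kb in KO1, KO2 and KO3. Its gene, ENSMUSG00000041324.14, spans bases 16011851 to 16031621 of chromosome 13 (GRCm38, plus strand).

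Fst encodes follistatin, a secreted protein that binds and neutralises activins. No read of Fst was counted in any clone library, against 11.8, 11.4 and 11.7 normalised counts (34 reads in all) in WT. Its WT values alone took it past the filter. With a floor of 3 reads over a group, Fst was at least 11.2-fold lower in KO1, at least 12.6-fold lower in KO2 and at least 11.8-fold lower in KO3 than in WT. These are given as a description, since a gene that passes the filter through WT alone has to differ from WT. Fst was near the limit of detection in WT too, with 2.53 counts per kb.

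Tgfb2, the ligand TGF-beta 2, had 337, 345 and 318 in KO1, 213, 253 and 210.1 in KO2 and 344, 320.3 and 352 in KO3, against 683, 621 and 640.3 in WT. All clone libraries lay below all WT libraries, and KO2 lay below the other clones. The difference was -0.96 in KO1, -1.52 in KO2 and -0.93 in KO3 (SE 0.09, adjusted p = 3.02e-06, 3.47e-08 and 3.08e-06). KO2 was lower than KO1 (-0.57, adjusted p = 0.000329). Tgfb3 averaged 1505 ± 66.5 in KO1, 2210 ± 69.9 in KO2 and 1518 ± 90.4 in KO3, against 2107 ± 81.3 in WT. It was lower in KO1 (-0.49, adjusted p = 2.31e-05) and KO3 (-0.47, adjusted p = 2.44e-05), while in KO2 the difference of 0.07 was not called (adjusted p = 0.334). The gap between KO2 and KO1 was itself called (0.55, adjusted p = 1.21e-05), as was that between KO3 and KO2 (-0.54, adjusted p = 8.36e-06).

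Tgfb1 averaged 639 ± 45.3 in KO1, 536 ± 63.5 in KO2 and 507 ± 61.3 in KO3, against 623 ± 24.9 in WT. Only KO3 was called (-0.30, SE 0.11, adjusted p = 0.029), and leaving out KO3 replicate 1, KO3 replicate 2 or WT replicate 3 ended that call (adjusted p = 0.104, 0.0977 and 0.0838). Gdf11, an activin-like ligand, had 2082, 2132 and 2226 in KO1, 1514, 1529 and 1602 in KO2 and 1411, 1387 and 1449 in KO3, against 1824, 1577 and 1527 in WT. KO1 lay wholly above WT, KO3 wholly below it, and KO2 overlapped it. Gdf11 was higher in KO1 (0.39, SE 0.07, adjusted p = 0.000353) and lower in KO3 (-0.21, adjusted p = 0.0175), a call that was lost without KO3 replicate 2 (adjusted p = 0.0536) and with only KO3 and WT in the fit (adjusted p = 0.0696). KO3 and KO1 differed by -0.60 (adjusted p = 1.62e-05).

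The BMP ligands were nearly undetected. Bmp2, Bmp5, Gdf6 and the activin subunit Inhbb had no read in any of the 12 libraries. Bmp4 had 4 reads over all libraries, Bmp7 had 5, Gdf15 had 17 and Bmp6 had 35. Bmp6 shares exon positions with Txndc5 on the opposite strand, and whether the counting used strand is not stated. None of these 8 ligands passed the filter, so no comparison was made.

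Of the 4 latent TGF-beta binding protein genes, Ltbp1 and Ltbp2 were lower in every clone and Ltbp4 was higher in every clone. Ltbp1 binds latent TGF-beta and anchors it in the matrix. It had 2469, 2494 and 2302 normalised counts in KO1, 2517, 2666 and 2715 in KO2 and 6768, 7172 and 6813 in KO3, against 18727, 17583 and 17309 in WT. KO1 and KO2 lay lowest, KO3 between them and WT, and no group overlapped with WT. Ltbp1 was lower by 7.38-fold in KO1 (-2.88, SE 0.05, adjusted p = 1.36e-12), 6.79-fold in KO2 (-2.76, adjusted p = 1.87e-12) and 2.58-fold in KO3 (-1.37, adjusted p = 5.73e-10). KO3 exceeded KO1 by 1.51 (adjusted p = 9.57e-10) and KO2 by 1.39 (adjusted p = 9.22e-10). Its gene, ENSMUSG00000001870.16, spans bases 75005568 to 75392512 of chromosome 17 (plus strand).

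Ltbp2, a matrix protein of the same family that is not known to bind latent TGF-beta, had 209, 210.0 and 229 in KO1, 29.9, 30.7 and 22.0 in KO2 and 77.7, 139 and 117 in KO3, against 355, 435 and 390.2 in WT. The 4 groups did not overlap, and KO2 was the lowest. The differences from WT were -0.86 in KO1 (SE 0.20, adjusted p = 0.00326), -3.80 in KO2 (adjusted p = 1.06e-08) and -1.85 in KO3 (adjusted p = 7.18e-06). KO2 was lower than KO1 (-2.94, adjusted p = 2.8e-07), and KO3 was higher than KO2 by 1.95 (adjusted p = 5.09e-06).

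Ltbp4, another binding protein of latent TGF-beta and elastic fibres, had 1166, 1519 and 1166 in KO1, 2003, 1861 and 1777 in KO2 and 2327, 2401 and 2770.1 in KO3, against 579, 594 and 757 in WT. Every clone library lay above every WT library, and the clones followed each other from KO1 to KO3 without overlap. Ltbp4 was higher by 0.99 in KO1, 1.55 in KO2 and 1.96 in KO3 (SE 0.12, adjusted p = 2.7e-05, 3.89e-07 and 4.66e-08). Ltbp3, which binds the same latent complexes, averaged 7498 ± 180 in KO1, 6418 ± 168 in KO2 and 8451 ± 183 in KO3, against 6733 ± 676 in WT. Only KO3 was called (0.33, adjusted p = 0.000803). Per kilobase, Ltbp1 was first among the binding proteins in WT and Ltbp3 was first in each clone.

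**Figure D2:**
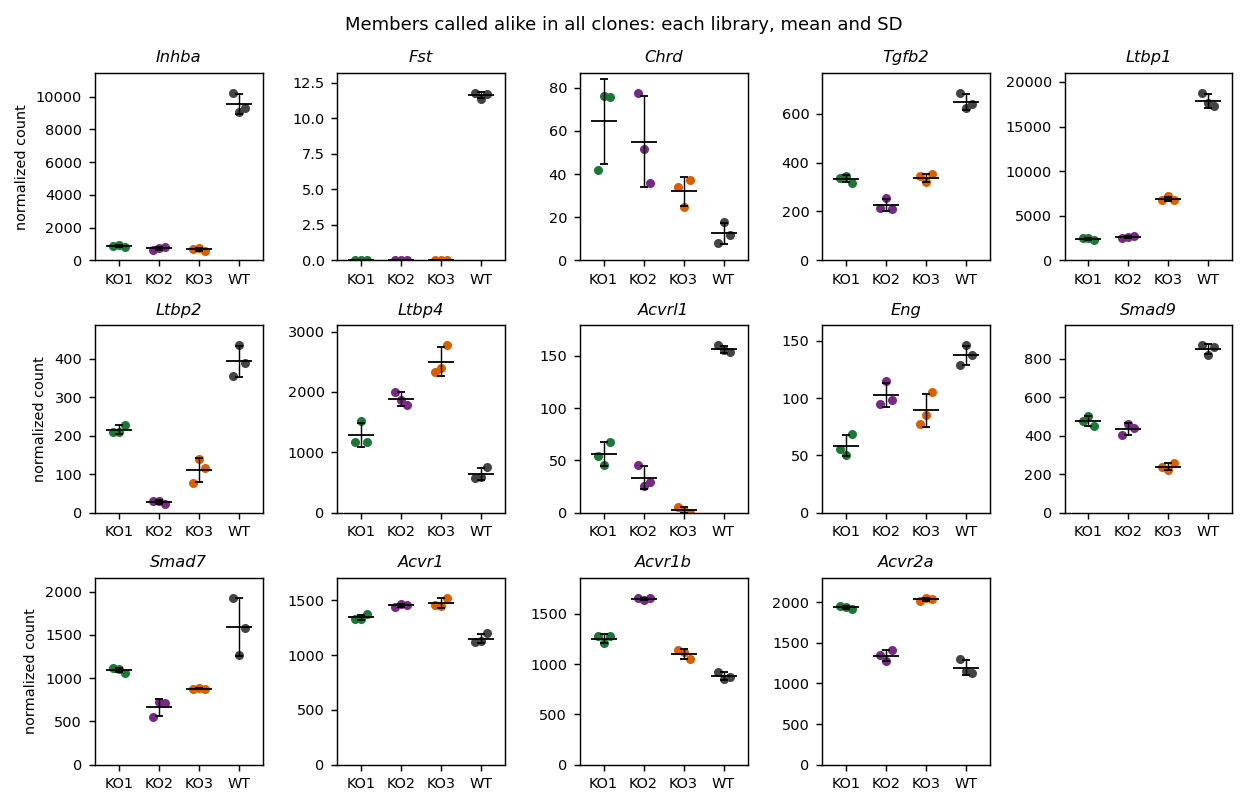
Normalised counts (y axis, from 0) of the 14 members called in the same direction in all clones, with a point for each of the 3 libraries of KO1, KO2, KO3 and WT (x axis), a horizontal line at the mean and bars of 1 SD. Inhba lay at 584 to 919 in the clones and 9054 to 10209 in WT, Ltbp4 lay above WT in all clones, and Acvrl1 in KO3 was close to 0.

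Of the 5 tested type I receptors, Acvr1 and Acvr1b were higher and Acvrl1 was lower in every clone, while Bmpr1a was called in none. Acvr1b is the type I receptor of activin. It had 1280, 1205 and 1276 in KO1, 1652, 1639 and 1660 in KO2 and 1136, 1117 and 1047 in KO3, against 923, 848 and 872 in WT. All clone libraries lay above WT, KO2 highest. Acvr1b was higher by 0.51 in KO1, 0.91 in KO2 and 0.32 in KO3 (SE 0.06, adjusted p = 1.04e-05, 4.52e-08 and 0.00041). Acvr1, a type I receptor for BMPs and, in complexes that do not signal, for activin, had 1329, 1329 and 1371 in KO1, 1437, 1464 and 1459 in KO2 and 1454, 1445 and 1522 in KO3, against 1122, 1129 and 1198 in WT. No clone overlapped with WT, and the difference was 0.22 in KO1, 0.34 in KO2 and 0.36 in KO3 (SE 0.05, adjusted p = 0.00244, 8.49e-05 and 6.48e-05).

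Acvrl1 encodes ALK1, a type I receptor best known from endothelial cells. Its normalised counts were 54.6, 45.4 and 67.9 in KO1, 45.7, 25.9 and 29.0 in KO2 and 5.18, 1.76 and 0 in KO3, against 159.9, 155 and 154 in WT. Clone libraries lay below WT without overlap, and KO3 held 7 reads in all, against 456 in WT. The difference was -1.48 in KO1 (SE 0.50, adjusted p = 0.0253), -2.23 in KO2 (adjusted p = 0.00198) and -5.93 in KO3 (adjusted p = 7.36e-07), and KO3 was lower than KO2 (-3.70, adjusted p = 5.08e-05). The KO1 call was lost with a pseudocount of 0.5 (adjusted p = 0.0703) and without KO1 replicate 1, KO1 replicate 2, WT replicate 2 or WT replicate 3 (adjusted p = 0.0616, 0.0804, 0.0552 and 0.0515). Tgfbr1, the type I receptor of TGF-beta, averaged 1677 ± 57.1 in KO1, 1421 ± 31.9 in KO2 and 1518 ± 187 in KO3, against 1363 ± 65.5 in WT. It was called in KO1 alone (0.30, adjusted p = 0.00794). The BMP receptor Bmpr1a had the highest level per kilobase of the type I receptors in every group, with 894, 906 and 808 per kb in KO1, KO2 and KO3 and 821 per kb in WT. Its differences of 0.13, 0.14 and -0.02 were not called (adjusted p = 0.107, 0.0585 and 0.767). Without WT replicate 1, Bmpr1a was called higher in KO1 (0.18, adjusted p = 0.0151) and KO2 (0.20, adjusted p = 0.00721). Bmpr1b had no read in any library.

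Type II receptors differed by clone. Tgfbr2, the type II receptor of TGF-beta, had 5018, 4697 and 4829.7 in KO1, 4692, 4731 and 4782 in KO2 and 1961, 2009 and 1872 in KO3, against 3467, 3453 and 3418 in WT. KO1 and KO2 lay above every WT library and KO3 below every one. Tgfbr2 was higher by 0.49 in KO1 (SE 0.04, adjusted p = 1.68e-06) and 0.46 in KO2 (adjusted p = 2.24e-06) and lower in KO3 (-0.82, adjusted p = 1.16e-08), and these calls held under every alternative run. Set against KO1, KO3 was at -1.32 (adjusted p = 7.87e-10), and set against KO2 at -1.28 (adjusted p = 4.76e-10), whereas KO2 and KO1 were not called apart (-0.03, adjusted p = 0.576). Acvr2a, a type II receptor for activins and BMPs, had 1956, 1939 and 1916 in KO1, 1348, 1269.7 and 1408 in KO2 and 2017, 2054 and 2039 in KO3, against 1296, 1157 and 1128 in WT. KO1 and KO3 lay above WT, and KO2 overlapped with it. Acvr2a was higher by 0.70 in KO1 (adjusted p = 1.2e-06), 0.17 in KO2 (adjusted p = 0.029) and 0.77 in KO3 (adjusted p = 3.93e-07). The KO2 call was lost without KO2 replicate 1, KO2 replicate 3, WT replicate 2 or WT replicate 3 (adjusted p = 0.0659, 0.105, 0.0885 and 0.110). With only KO2 and WT in the fit, this call was lost too (adjusted p = 0.106). Acvr2a shares exon positions with Orc4 on the opposite strand, which averaged 1447 in KO1, 1555 in KO2 and 2228 in KO3, against 1631 in WT.

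Acvr2b, which binds the same ligands as Acvr2a, averaged 136 ± 9.17 in KO1, 185 ± 32.8 in KO2 and 98.9 ± 4.96 in KO3, against 208 ± 31.0 in WT. It was lower in KO1 (-0.60, adjusted p = 0.00473) and KO3 (-1.05, adjusted p = 6.62e-05), and KO2 was not called (-0.17, adjusted p = 0.343). The BMP type II receptor Bmpr2 averaged 3285 ± 187 in KO1, 2928 ± 188 in KO2 and 2755 ± 244 in KO3, against 2936 ± 316 in WT. Its differences were 0.17, 0.00 and -0.09 (adjusted p = 0.131, 0.999 and 0.405). Without WT replicate 1, which had 1.20 times the mean Bmpr2 count of the other WT libraries, KO1 was called higher (0.25, adjusted p = 0.0165). Per kilobase the order of the type II receptors was Tgfbr2, Acvr2a, Bmpr2 and Acvr2b in KO1, KO2 and WT, and in KO3 Acvr2a came before Tgfbr2, with 358 and 238 per kb.

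**Figure D3:**
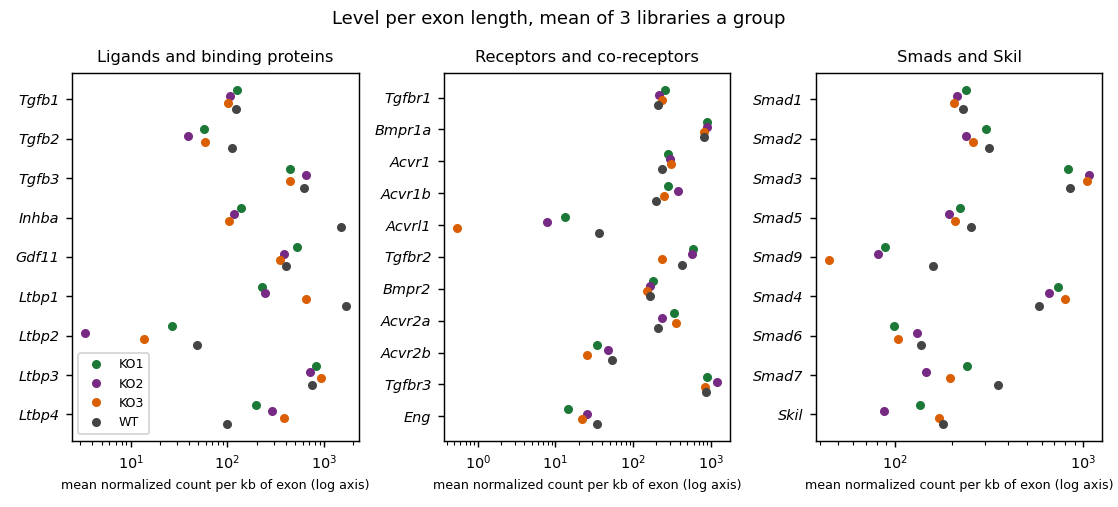
Mean normalised count per kilobase of annotated exon (x axis, log scale) of the tested ligands and binding proteins (left), receptors and co-receptors (middle) and Smads and Skil (right), with a point for KO1, KO2, KO3 and WT in each row. Bmpr1a and Smad3 led the type I receptors and the Smads in every group, Acvrl1 was the lowest receptor in KO1, KO2 and KO3, and Tgfbr2 in KO3 lay at 238 per kb, left of the other groups.

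The co-receptors present ligands to the signalling receptors. Eng, endoglin, works with ALK1 in endothelial cells. It had 55.7, 50.7 and 68.9 in KO1, 95.2, 115 and 98.5 in KO2 and 77.7, 85.1 and 106 in KO3, against 129, 146 and 137 in WT. All clone libraries lay below WT, KO1 lowest. Eng was lower in every clone, at -1.23, -0.42 and -0.63 in KO1, KO2 and KO3 (SE 0.16, adjusted p = 4.53e-05, 0.0413 and 0.00597). The KO2 call was lost with no filter (adjusted p = 0.0846) and without 6 of the 12 libraries in turn, namely KO1 replicate 1, KO2 replicate 1, KO2 replicate 3, KO3 replicate 2, WT replicate 2 and WT replicate 3 (adjusted p = 0.0507 to 0.118). In the authors' deposited table Eng was at -0.39 in KO2 with an adjusted p of 0.0510. Endothelial markers summed to 270 to 330.3 in KO1, 133 to 208 in KO2 and 120.2 to 177 in KO3, against 78.8 to 109 in WT, but the markers did not move together. Vwf was called higher in every clone, with means of 111 in KO1, 110.2 in KO2 and 97.6 in KO3, against 63.9 in WT. Cdh5 averaged 164 in KO1, 16.6 in KO2 and 4.68 in KO3, against 16.4 in WT, and was called in KO1 alone. Tek (15.9, 26.3 and 33.5 in KO1, KO2 and KO3, against 2.03 in WT) was called higher in KO1 and KO3, and Pecam1 (18.3, 11.4 and 6.46, against 8.02 in WT) in KO1 alone. Tek passed the filter only through the clones, so its direction is given as a description. Exons of Eng overlap those of Fpgs on the opposite strand, which averaged 803 in KO1, 843 in KO2 and 1305 in KO3, against 1202 in WT. Tgfbr3, betaglycan, which presents TGF-beta 2 to its receptors, averaged 5875 ± 243 in KO1, 7979 ± 174 in KO2 and 5511 ± 96.1 in KO3, against 5683 ± 506 in WT, and was called in KO2 alone (0.49, adjusted p = 1.91e-05).

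Of the 6 receptor and common Smads, Smad9, a receptor Smad of BMP signalling, was the 1 called lower in every clone. It had 476, 501 and 449.5 in KO1, 403, 461 and 440.4 in KO2 and 235, 224 and 259 in KO3, against 869, 821 and 863 in WT. KO3 lay below the other clones and all of them lay below WT. The Smad9 difference was -0.84 in KO1, -0.97 in KO2 and -1.83 in KO3 (SE 0.08, adjusted p = 4.24e-06, 8.56e-07 and 2.63e-09), and KO3 was lower than KO2 (-0.86, adjusted p = 3.28e-06). Per kilobase it was the lowest of the 6 receptor and common Smads in every group. The other BMP Smads moved less. Smad5 averaged 1645 ± 65.6 in KO1, 1433 ± 46.0 in KO2 and 1537 ± 103 in KO3, against 1879 ± 277 in WT, and was lower in KO2 (-0.38, adjusted p = 0.00286) and KO3 (-0.28, adjusted p = 0.0187). WT replicate 1 had 1.28 times the mean Smad5 count of the other WT libraries. Smad1 averaged 1487 ± 11.3 in KO1, 1340 ± 47.1 in KO2 and 1281 ± 8.98 in KO3, against 1435 ± 57.6 in WT, and was lower in KO3 (-0.16, adjusted p = 0.0167). Both KO3 calls were lost in some fits, Smad5 without KO3 replicate 3 (adjusted p = 0.0791) and Smad1 without WT replicate 2 or WT replicate 3 (adjusted p = 0.0596 and 0.0543). With only KO3 and WT in the fit, both were lost (adjusted p = 0.0798 for Smad5 and 0.0565 for Smad1).

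The Smads of TGF-beta and activin went in different directions in KO2 and KO3. Smad2 averaged 2656 ± 113 in KO1, 2102 ± 181 in KO2 and 2277 ± 99.2 in KO3, against 2762 ± 223 in WT. It was lower in KO2 (-0.39, adjusted p = 0.000551) and KO3 (-0.28, adjusted p = 0.00715). Smad3 averaged 4603 ± 159 in KO1, 5963 ± 67.2 in KO2 and 5816 ± 132 in KO3, against 4695 ± 163 in WT. It was higher in KO2 (0.35, adjusted p = 2.88e-05) and KO3 (0.31, adjusted p = 8.81e-05). In KO1 neither was called (-0.05 and -0.03, adjusted p = 0.571 and 0.619). Smad4, the common partner, averaged 2732 ± 98.5 in KO1, 2449 ± 198 in KO2 and 2962 ± 87.9 in KO3, against 2159 ± 219 in WT, and was higher in KO1 (0.34, adjusted p = 0.00242) and KO3 (0.46, adjusted p = 0.000265). For KO2 the Smad4 difference of 0.18 missed the threshold (adjusted p = 0.0559) and passed it with edgeR (adjusted p = 0.0422). Smad3 and then Smad4 had the highest levels per kilobase of these Smads in every group.

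The intracellular inhibitors were lower or not called in every clone. Smad7, an inhibitory Smad that TGF-beta itself induces, had 1112, 1107 and 1061 in KO1, 553, 723 and 710.3 in KO2 and 878, 888 and 875 in KO3, against 1929, 1265 and 1582 in WT. No clone library reached the lowest WT library, although the WT libraries spread widely, with WT replicate 1 the highest. Its differences were -0.52, -1.25 and -0.83 in KO1, KO2 and KO3 (SE 0.13, adjusted p = 0.00592, 5.18e-06 and 0.000198), and these calls held without any 1 library. Skil, a corepressor of Smads, had 1339, 1339 and 1275 in KO1, 771, 828 and 930.1 in KO2 and 1644, 1688 and 1630.1 in KO3, against 1969.8, 1639 and 1637 in WT. KO1 and KO2 lay below WT, and KO3 overlapped with it. Skil was lower in KO1 (-0.40, adjusted p = 0.00142) and KO2 (-1.05, adjusted p = 3.79e-07), and in KO3 the value of -0.07 was not called (adjusted p = 0.473). KO3 was higher than KO2 by 0.98 (adjusted p = 1.01e-06). Smad6, the inhibitory Smad of BMP signalling, averaged 315 ± 12.6 in KO1, 419 ± 34.1 in KO2 and 334 ± 34.5 in KO3, against 439 ± 15.3 in WT. It was lower in KO1 (-0.48, adjusted p = 0.00103) and KO3 (-0.40, adjusted p = 0.00336), and KO2 was not called (-0.07, adjusted p = 0.541). Smad6 is the member whose start carries the palindrome printed above.

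Of the secreted BMP inhibitors, Chrd was the only one tested. It encodes chordin, which binds BMPs outside the cell. It had 41.7, 76.0 and 75.7 in KO1, 77.4, 51.7 and 36.0 in KO2 and 34.2, 24.6 and 37.3 in KO3, against 8.23, 17.6 and 11.7 in WT. Every clone library lay above every WT library at low counts, with 37 reads over the WT libraries. WT replicate 1, at 8.23, was under the filter's 10, so Chrd passed the filter only with its clone libraries. Chrd was higher by 2.28 in KO1, 2.04 in KO2 and 1.33 in KO3 (SE 0.35, adjusted p = 0.000156, 0.000277 and 0.00664). Its exons overlap those of Thpo on the opposite strand, which averaged 9.72 in KO1, 14.4 in KO2 and 9.51 in KO3, against 4.96 in WT. Nog had no read in any library, and Grem1 had 4 reads over all of them.

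The Id genes encode inhibitors of basic helix-loop-helix factors and are direct targets of BMP Smads. Id1 had 2266, 2250.0 and 2366 in KO1, 1178, 1164 and 839.6 in KO2 and 1743, 1624 and 1723 in KO3, against 1768, 2904 and 3269 in WT. KO2 and KO3 lay below all WT libraries, and KO1 lay inside the range of WT, whose replicate 1 had 0.573 times the mean of the other WT libraries. Id1 was lower in KO2 (-1.29, SE 0.19, adjusted p = 7.57e-05) and KO3 (-0.59, adjusted p = 0.0178), and KO1 was not called (-0.16, adjusted p = 0.508). Without WT replicate 1, Id1 was also lower in KO1 (-0.43, adjusted p = 0.0102), and the KO3 call was lost without KO3 replicate 2, WT replicate 2 or WT replicate 3 (adjusted p = 0.053, 0.0671 and 0.0775). With only KO3 and WT in the fit, the KO3 call of Id1 was lost too (adjusted p = 0.0605). Id3 had 7029, 6667 and 6939 in KO1, 5937, 5966 and 4419 in KO2 and 4071, 3613 and 4257 in KO3, against 4182, 6791 and 7569 in WT. All groups overlapped with WT, whose replicate 1 was again low, at 0.582 times the mean of the others. KO3 was called lower (-0.59, SE 0.18, adjusted p = 0.0151), a call lost without KO3 replicate 2, WT replicate 2 or WT replicate 3 (adjusted p = 0.0568, 0.0591 and 0.066), and without WT replicate 1 Id3 was also lower in KO2 (-0.41, adjusted p = 0.00819). With only KO3 and WT in the fit, the KO3 call of Id3 was lost too (adjusted p = 0.0596).

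Id2 had 7955, 7834 and 7775 in KO1, 9988, 9931 and 9754 in KO2 and 6533, 6489 and 6447 in KO3, against 8839, 9006 and 9598 in WT. KO1 and KO3 lay below every WT library and KO2 above every one. The difference was -0.22 in KO1 (SE 0.04, adjusted p = 0.000915), 0.11 in KO2 (adjusted p = 0.0351) and -0.49 in KO3 (adjusted p = 8.84e-07). The KO2 call was lost in 9 of the alternatives, among them leaving out KO2 replicate 1, KO2 replicate 2, WT replicate 1, WT replicate 2, KO1 replicate 2 or KO1 replicate 3 (adjusted p = 0.0506 to 0.0937), and the KO1 call was lost with quantile normalisation (-0.11, adjusted p = 0.0722). Between KO2 and KO1 the difference was 0.33 (adjusted p = 5.03e-05), and between KO3 and KO2 it was -0.61 (adjusted p = 1.81e-07).

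**Figure D4:**
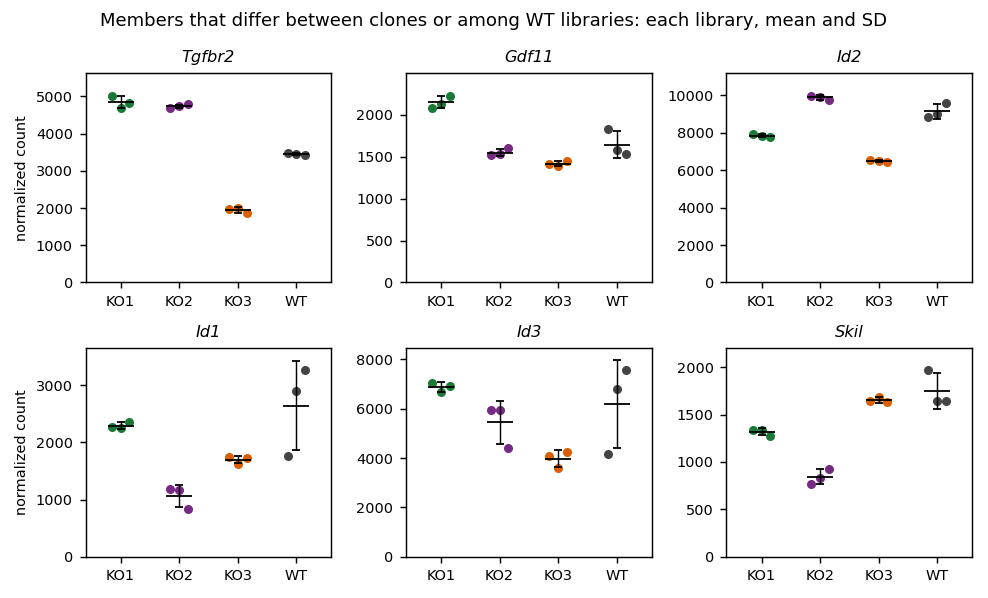
Normalised counts (y axis, from 0) of 6 members whose levels differed between clones or among the WT libraries, with a point for each library of KO1, KO2, KO3 and WT (x axis), a line at the mean and bars of 1 SD. Tgfbr2 lay above WT in KO1 and KO2 and below it in KO3, Skil was lowest in KO2, and WT replicate 1 was the low WT point of Id1 and Id3.

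The clones also differed among themselves. Between KO2 and KO1, 9 tested members were higher and 11 lower, where 20.5% of all tested genes were higher and 23.9% lower. Between KO3 and KO1, 7 were higher and 15 lower, against a background of 20.3% and 23.4%. Between KO3 and KO2, 10 were higher and 10 lower, against 26.1% and 27%. All 4 latent binding protein genes were higher in KO3 than in KO2. These 3 comparisons reuse the clone libraries, and no Crls1 level was entered as a term.

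A wider list of 83 other genes of the pathway had 56 tested members. Of these, 20 were higher and 17 lower in KO1, 18 higher and 23 lower in KO2, and 20 higher and 23 lower in KO3, with median differences of -0.03, -0.05 and 0.03. In all 3 clones alike, 9 were higher and 11 lower, and 9 were called in opposite directions in different clones. The 11 include Tgfbi, which passed the filter through WT alone and is no support for a direction. For comparison, 26.9% of all tested genes were higher and 25.4% lower in KO1, 29.9% and 30.5% in KO2, and 26.8% and 27.3% in KO3. In all 3 clones alike, 12.9% of all tested genes were higher and 13.3% lower, and 8.38% were called in opposite directions. The list was not tested as a set against these shares, so none of its counts is read as particular to it.

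Of the wider list's 6 tested genes of TGF-beta latency and activation, 1 was higher and 3 were lower in every clone. Over all tested genes, 12.9% were higher and 13.3% lower in all 3 clones. Thbs1, thrombospondin 1, which can activate latent TGF-beta, averaged 68822 ± 2428 in KO1, 55609 ± 8482 in KO2 and 19125 ± 1165 in KO3, against 352220.0 ± 16183 in WT. It was lower, at -2.36 in KO1, -2.67 in KO2 and -4.20 in KO3 (adjusted p = 1.3e-09, 4.3e-10 and 9.6e-12). Itgav, the alpha v integrin subunit, was lower (-0.40, -0.47 and -0.31), with a KO3 call lost without KO3 replicate 3 (adjusted p = 0.052). Itgb8, the beta 8 subunit that pairs with it to activate TGF-beta, was higher by 4.50, 4.67 and 5.57 in KO1, KO2 and KO3. The subunits of this integrin were thus called in opposite directions. Fbn2, fibrillin 2, a matrix protein on which latent complexes can be deposited, had 6.42, 2.11 and 2.95 in KO1, 48.5, 30.7 and 28.1 in KO2 and 0, 0.877 and 0 in KO3, against 176, 147 and 145 in WT. The clones did not overlap with WT, and KO3 held 1 read, against 452 in WT, a ratio of 470.5 with a 95% counting interval of 84.0 to 18620.

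Of the 16 tested targets on the wider list, 8 were higher and 5 lower in KO1, 7 and 7 in KO2, and 4 and 10 in KO3. Over all tested genes, 26.9% were higher and 25.4% lower in KO1, 29.9% and 30.5% in KO2, and 26.8% and 27.3% in KO3. Tgfbi, a matrix protein named for its induction by TGF-beta, had no read in KO1 or KO3 and 1 read in KO2, against 492 reads in WT. It was at least 163-fold lower in KO1 and at least 171-fold lower in KO3, and the ratio in KO2 was 547.5 (95% counting interval 97.8 to 21670). These are given as a description, since the WT values alone took Tgfbi past the filter and it had to differ from WT. Tgfbi is among the lower targets counted in every clone and is no support for a direction. The crosslinking enzyme Tgm2 was lower (-1.41, -1.05 and -1.55). In the other direction, Col3a1, the collagen III chain and also 1 of the fibroblast markers, averaged 7939 ± 1254 in KO1, 884 ± 121 in KO2 and 3664 ± 267 in KO3, against 148 ± 13.7 in WT. It was higher by 5.72, 2.56 and 4.62 (adjusted p = 6.5e-12, 5.1e-09 and 3e-11).

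Genes of the wider list that act on BMPs outside the cell also went in different directions. Chrdl1, a relative of chordin, had 163, 137 and 114 in KO1, 194, 200.3 and 234 in KO2 and 157, 178 and 164 in KO3, against 21.2, 12.4 and 8.13 in WT. It was higher by 3.30, 3.91 and 3.58, and the BMP-binding protein Bmper was higher by 2.32, 2.70 and 1.84 in KO1, KO2 and KO3. Twsg1, which acts with chordin, was lower (-0.89, -0.80 and -1.10). For Chrd, Chrdl1 and Bmper the clone libraries all lay above the WT libraries. Like Chrd, Chrdl1 passed the filter only with its clone libraries. Crim1 was higher in KO1 (0.32) and KO3 (0.65) and lower in KO2 (-0.37).

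Among ligand processing genes and regulators, Furin, a protease that cleaves ligand precursors, averaged 635 ± 56.9 in KO1, 686 ± 34.5 in KO2 and 451 ± 18.6 in KO3, against 135 ± 2.05 in WT. It was higher by 2.22, 2.33 and 1.73 (adjusted p = 5.6e-10, 3.9e-10 and 4.2e-09). Gdf9 was higher at low counts (1.57, 1.92 and 1.93), with a KO1 call that was lost without KO1 replicate 3 (adjusted p = 0.0724) and with quantile normalisation (0.90, adjusted p = 0.162). Gdf5 was called lower in KO3 alone (-2.78). In KO1 it was at -1.20 (adjusted p = 0.0568) and was called without KO1 replicate 2 (adjusted p = 0.00961) and with a pseudocount of 5 (adjusted p = 0.0312). The astacin protease Bmp1, a procollagen C-proteinase, was at -0.12, 0.19 and -0.14 and called in KO2 alone. That call was lost without KO2 replicate 1 or WT replicate 3 (adjusted p = 0.0823 and 0.0760), and KO3 was called lower without KO3 replicate 3 (adjusted p = 0.0463). With only KO2 and WT in the fit, the KO2 call of Bmp1 was lost too (adjusted p = 0.0566). The co-receptor Rgma was higher by 0.98, 1.86 and 1.13. Fkbp1a, which binds type I receptors and holds them inactive, was lower (-0.52, -0.70 and -0.53). The pseudoreceptor Bambi was lower in KO2 (-0.74) and KO3 (-0.78) and not called in KO1 (-0.25), where it was called without WT replicate 1 (-0.46, adjusted p = 0.0465). Tgfbrap1, a receptor-associated protein, was lower in KO2 (-0.38) and KO3 (-0.30), with a KO3 call lost without KO3 replicate 3 (adjusted p = 0.0525). Within the cell, the ubiquitin ligase Smurf2 was lower (-0.34, -0.44 and -0.29), with a KO3 call lost without WT replicate 1 (adjusted p = 0.0616) or KO3 replicate 3 (adjusted p = 0.0838). With only KO3 and WT in the fit, the KO3 call of Smurf2 was lost too (adjusted p = 0.0564). The corepressor Tgif1 was lower in KO1 (-0.64) and KO2 (-1.08) and higher in KO3 (0.30). Of the ligases Nedd4l and Trim33, Nedd4l was higher in KO1 (0.29) and KO2 (0.32), and Trim33 was lower in KO2 (-0.34) and higher in KO3 (0.18). The KO3 call of Trim33 was lost without KO3 replicate 1 or KO3 replicate 2 (adjusted p = 0.0517 and 0.0537), and with only KO3 and WT in the fit (adjusted p = 0.0613).

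**Figure D5:**
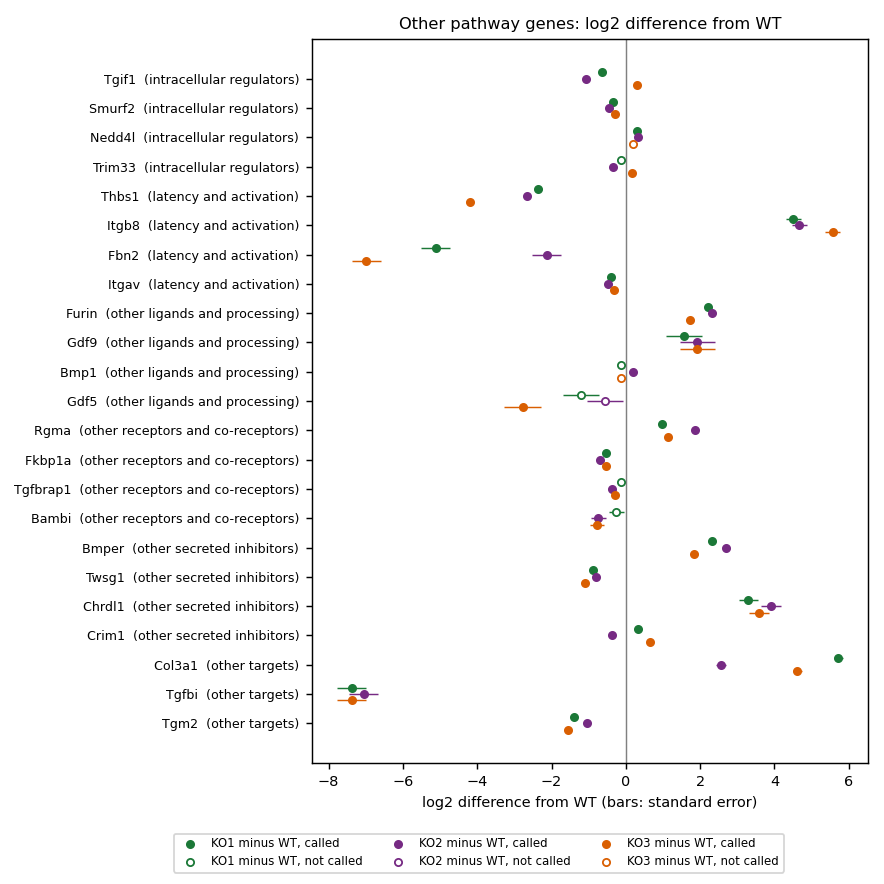
Log2 difference from WT (x axis) of 23 other pathway genes (rows, with their role), with a point for KO1, KO2 and KO3 and bars of 1 standard error, filled where the adjusted p was under 0.05. Tgfbi, which passed the filter through WT alone, lay between -7.38 and -7.06. Itgb8 lay between 4.50 and 5.57, while Tgif1 and Crim1 had clones on both sides of 0.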

How the data were processed

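RNA of 12 NIH-3T3 libraries (3 each of KO1, KO2, KO3 and WT) was sequenced and processed by the authors. The submitters' processing notes list Salmon 0.14.1, cutadapt, DESeq2 1.24.0 and the build GRCm38 (mm10), without their roles and without the strand setting of the counting. The deposited table gives a signal per gene, a normalised count, which is a read count divided by a library factor. The authors' deposited tables of each clone against WT give log2 fold changes and adjusted p-values, and were used as an alternative. Steps of the low values gave back the reads: 99.99% of values were whole within 0.02 in every library, with 32929242 to 42211807 reads per library. Of 54392 gene rows, 35 had no symbol in GENCODE M21 and none is a member; 0 columns were left unused.

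Values were tested as log2(normalised count + 1) with limma 3.58.1 (R 4.3.3, trended prior variance) in 1 fit of the 4 groups (8 residual degrees of freedom) over 15073 genes with at least 10 in at least 3 libraries, two-sided, Benjamini-Hochberg adjusted over all of them at 0.05. Fold changes on this scale understate those of low genes. Levels were compared between genes only per kilobase of merged annotated exons. Intervals and floors (3 reads, 95% intervals) cover counting error only. The fit was tested on simulated data. All members may be named; those called in all 3 clones or differing by at least 2 on the log2 scale in any clone have their libraries given. From each role of the wider list, up to 4 tested genes were named, those whose largest adjusted p over the 3 clones was smallest, of which 1 is not reported here. The members and lists were chosen with earlier results of these data known. Alternatives were pseudocounts of 0.5 and 5, no filter, quantile normalisation, edgeR 4.0.16 and DESeq2 1.42.0 on the recovered reads, the authors' tables, a replicate block, only the 2 groups compared, and leaving out each library. No batch is named in the labels.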

Additional observations from a re-analysis of the deposited data

Results flagged for a closer look

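Tgfbr2 was higher in KO1 and KO2 and lower in KO3 than in WT. The difference between clones was itself tested in the fit over all genes: for Tgfbr2 it was -1.32 between KO3 and KO1 (adjusted p = 7.87e-10) and -1.28 between KO3 and KO2 (adjusted p = 4.76e-10), and all 3 libraries of KO3 lay below all libraries of KO1 and KO2. Gdf11 was higher in KO1 and lower in KO3 than in WT, and KO3 minus KO1 was -0.60 (adjusted p = 1.62e-05), again in 3 of 3 libraries. Id2 was higher in KO2 and lower in KO1 and KO3 than in WT, with KO2 minus KO1 at 0.33 (adjusted p = 5.03e-05) and KO3 minus KO2 at -0.61 (adjusted p = 1.81e-07). The clones share the WT libraries, and each clone is 1 founder cell's line. Groups of 3 libraries were not searched for single outlying values.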

How the results depend on the processing

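No member's difference changed sign in a call under any of the 21 alternatives. Of 74 calls of members against WT, 63 held in all of them and 11 were lost in at least 1, while 13 differences that were not called passed in at least 1; of 62 calls between clones, 46 held and 16 were lost in at least 1. The cause was not tested. No count of members or of other pathway genes moved by over 1.5 times. Leaving out each library in turn gave 9 to 11 members higher and 13 to 15 lower in KO1, 7 to 10 and 12 to 16 in KO2, and 8 to 9 and 17 to 21 in KO3, with 11 to 15 called alike. Quantile normalisation ended 1 call and added 8, and edgeR on the recovered reads added 2; over all genes edgeR called 7879, 9124 and 8119 genes in KO1, KO2 and KO3 against WT, where limma called 7878, 9105 and 8151. The replicate numbers of the labels did not pair the libraries: of 18 same-numbered pairs, 2 had deviations correlated above 0.1 (range -0.221 to 0.123), and 3 of 12 libraries correlated best with their own number. With the replicate block, 14 members were called alike and 2 calls were lost, Tgfb1 in KO3 (adjusted p = 0.0509) and Id2 in KO2 (adjusted p = 0.0651). Depth limits Fst, Chrd and Acvrl1 most, with 34, 499 and 735 reads over all libraries, and for Fst the fitted value depends on the pseudocount.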
